A study of Mus musculus with 6 samples.

Results

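The 8 genes described here encode surface molecules through which an antigen-presenting macrophage exchanges stimulatory and inhibitory signals with lymphocytes: Cd40, Cd80, Cd86, Cd274, Pdcd1lg2, Icosl, Cd38 and Slamf7. They were taken by symbol from a table of 46095 genes, all 8 had a row of their own, and all 8 passed the filter on low counts that left 13215 genes to be tested. RNA sequencing compared Cd226-/- with wild-type (WT) macrophages grown from the bone marrow of C57BL/6 mice on postnatal day 56. CD226 (DNAM-1) is an activating adhesion receptor best known from T and NK cells. Cells of both genotypes received M-CSF (20 ng/ml, 7 days), the growth factor that turns marrow progenitors into macrophages, and then 24 h of IFN-γ (20 ng/ml) with LPS (100 ng/ml), the stimulus of the M1 state. There were 3 libraries of each genotype and no unstimulated library, so that the comparison is between genotypes after the stimulus and says nothing of induction by it. The labels name neither the deleted part of the gene nor separate mice or cultures for the replicates, and the p-values therefore measure the spread between these libraries, which may be technical.

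T cells need a signal beside antigen, and the B7 proteins CD80 and CD86 give it through CD28, while the same proteins bind the inhibitory receptor CTLA-4. PD-L1 (Cd274) and PD-L2 (Pdcd1lg2) bind the inhibitory receptor PD-1, and ICOS ligand (Icosl) binds ICOS on activated T cells. The label of ligands fits these members. CD40 is itself a receptor, of the TNF receptor family, engaged by CD40 ligand on helper T cells. CD38 is an ectoenzyme that consumes NAD and is a surface marker of M1-type mouse macrophages, and SLAMF7 is a SLAM-family receptor that binds another SLAMF7 molecule. In macrophages several of these genes are known to be induced by IFN-γ or by LPS.

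Total counts were 16925955 to 18867799 in Cd226-/- libraries and 16838527 to 21658061 in WT libraries. The targeted gene, Cd226, had 11, 10 and 8 counts in Cd226-/- replicates 1 to 3 and 5, 17 and 23 counts in WT replicates 1 to 3 (adjusted p = 0.480 in edgeR's quasi-likelihood test, the test of every adjusted p below unless another is named), too few to check the labels. The second principal component, with 15.5% of the variance, set Cd226-/- replicate 1 apart from the other Cd226-/- libraries, and values without it, or with it alone, stand beside the results they change. Macrophage genes were abundant in both genotypes, with Lyz2 at a mean of 11829 CPM (counts-per-million, scaled for library composition) in Cd226-/- and 10650 CPM in WT. In bulk RNA, fewer cells of a type and less RNA per cell cannot be told apart.

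Of the 8 genes 6 were higher in Cd226-/- macrophages at an adjusted p under 0.05, none was lower, and Cd274 and Icosl did not pass. The rises were small: Pdcd1lg2 rose 1.57-fold, Cd86 1.31-fold, Cd80 1.24-fold, Cd40 1.18-fold, Slamf7 1.15-fold and Cd38 1.12-fold. Over all genes tested 30.9% were called, 16.1% higher and 14.8% lower. Abundant genes were called more often: where the mean reached 100 CPM, 48.4% were called and 29.7% were higher. Of the 8 genes, 5 lie in that class and 4 of these rose. The median log2 fold change of the 8 genes was 0.24, against -0.0045 over all genes tested. In the same 6 genes the CPM of all 3 Cd226-/- libraries lay above those of all 3 WT libraries, an arrangement seen in 22.1% of the genes tested (22.3% had all Cd226-/- values below, and 44.3% did not overlap in either direction). When replicate 1 alone stood for Cd226-/-, 3 of the 8 were called, namely Cd40, Cd86 and Slamf7. With libraries scaled by total count alone 5 were called, and over all genes the calls then split into 1773 higher and 2764 lower, against 2130 and 1956 with TMM scaling.

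**Figure D1:**
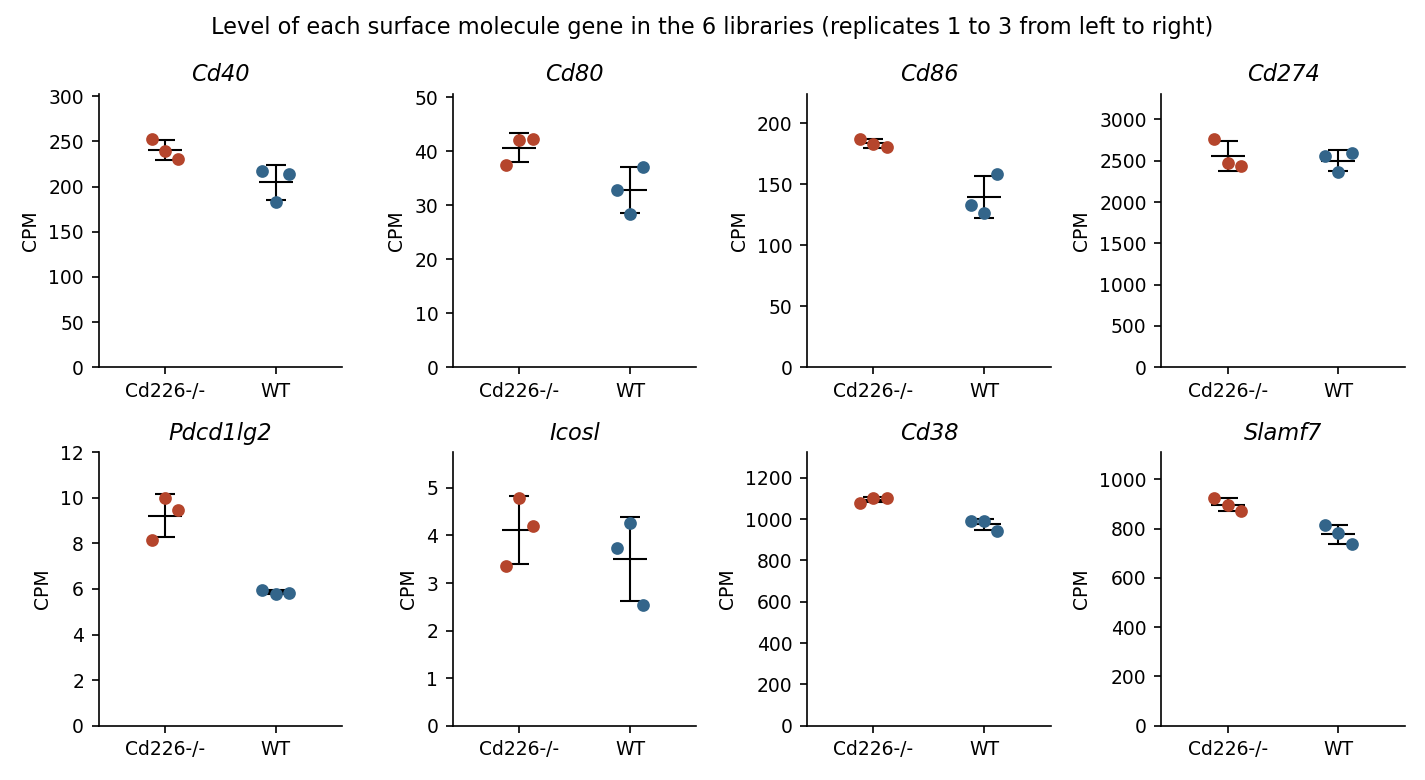
CPM (counts-per-million, linear axes from 0) of each gene in the 3 Cd226-/- (left, red) and 3 WT (right, blue) libraries, with the mean and SD as black bars. The Cd226-/- points of Cd40, Cd80, Cd86, Pdcd1lg2, Cd38 and Slamf7 all lie above the WT points, and those of Cd274 and Icosl overlap them.

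**Figure D2:**
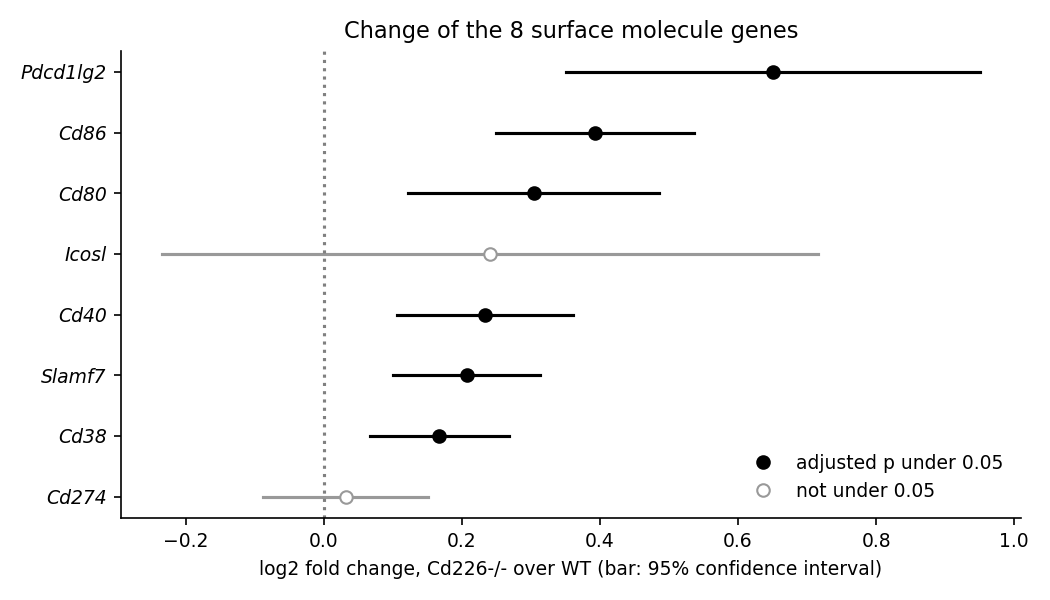
Log2 fold change, Cd226-/- over WT, of the 8 genes with 95% confidence intervals from the fit across all genes (3 libraries each). The 6 filled points had an adjusted p under 0.05, and the intervals of Icosl and Cd274 (open points) span 0.

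The levels themselves covered a wide span. Divided by the exon length of each gene, Cd274 came first in Cd226-/- macrophages with a mean of 706 ± 49.2 CPM per kb (SD, n = 3), followed by Cd38 at 335, Slamf7 at 196, Cd40 at 80.6, Cd86 at 72.3, Cd80 at 11.0, Pdcd1lg2 at 4.70 and Icosl at 1.46. WT macrophages had the same order, with 691 ± 34.8 CPM per kb (SD, n = 3) for Cd274, 298 for Cd38, 170 for Slamf7, 68.5 for Cd40, 55.0 for Cd86, 8.86 for Cd80, 2.99 for Pdcd1lg2 and 1.25 for Icosl. Neighbours in the order were separated in every library of a genotype, except that Cd40 and Cd86 overlapped between WT libraries. Cd274 was at the 99.8th percentile of abundance among the genes tested and Icosl at the 24.2nd; the confidence interval of the change was widest for Icosl.

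The genes of CD28 and CTLA-4 ligands both rose. Cd86 (chromosome 16, 36603869 to 36666081, minus strand; GRCm38, as are all positions here) had 187, 183 and 180 CPM in Cd226-/- replicates 1 to 3 and 133, 127 and 159 CPM in WT replicates 1 to 3. Every Cd226-/- library was above every WT library, and the WT libraries were the more spread, with WT replicate 3 nearest to Cd226-/-. The log2 fold change was 0.39 ± 0.068 (SE; adjusted p = 3.05e-04). Cd80 (chromosome 16, 38455561 to 38496335, plus strand), at a lower level, had 37.5, 42.1 and 42.3 CPM in Cd226-/- and 32.9, 28.5 and 37.0 CPM in WT. Here the lowest Cd226-/- library and the highest WT library nearly met. Cd80 had a log2 fold change of 0.30 ± 0.087 (SE; adjusted p = 0.0112), and leaving out WT replicate 2 ended the call (0.21, adjusted p = 0.0755), as did using replicate 1 alone for Cd226-/- (0.20, adjusted p = 0.278).

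The balance of the pair was compared as a ratio within each library. The log2 ratio of Cd80 to Cd86 was -2.31, -2.12 and -2.09 in Cd226-/- libraries and -2.01, -2.15 and -2.10 in WT libraries. The genotypes overlapped, and the difference of -0.087 gave p = 0.50 in a two-sided exact permutation test, in which 3 against 3 libraries cannot go below 0.10. In counts, 4.27 to 4.99 reads of Cd86 were found per read of Cd80 in Cd226-/-, against 4.05 to 4.45 in WT.

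The PD-1 ligand genes are neighbours on chromosome 19 and differed from each other. Cd274 (29367455 to 29388095, plus strand) had 2762, 2470 and 2439 CPM in Cd226-/- and 2552, 2358 and 2595 CPM in WT. The genotypes overlapped, with Cd226-/- replicate 1 highest of all 6 and WT replicate 2 lowest. Its log2 fold change was 0.031 (95% confidence interval -0.088 to 0.15, adjusted p = 0.716), so that a rise beyond 1.11-fold and a fall below 0.941-fold of WT lie outside the interval. The sign was not stable: the value was -0.023 with libraries scaled by total count, -0.029 without Cd226-/- replicate 1 and -0.011 without WT replicate 2.

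Pdcd1lg2 (29410919 to 29471161, plus strand) was a rare transcript, with 148, 167 and 174 counts in Cd226-/- and 109, 99 and 129 counts in WT. In CPM these were 8.16, 10.0 and 9.48 in Cd226-/-, against 5.97, 5.79 and 5.84 in WT. The WT libraries were close together, and all 3 Cd226-/- libraries lay above them, replicate 1 by the least. Pdcd1lg2 had the largest log2 fold change of the 8 genes, 0.65 ± 0.14 (SE; adjusted p = 0.00146). It was 0.48 (adjusted p = 0.124) with replicate 1 alone for Cd226-/-, and 0.59 to 0.73 when single libraries were left out, always with an adjusted p under 0.05.

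In the ratio of the PD-1 ligand genes, 339, 247 and 257 reads of Cd274 were found per read of Pdcd1lg2 in Cd226-/-, against 427, 408 and 445 in WT. The log2 ratio of Pdcd1lg2 to Cd274 averaged -8.10 ± 0.25 in Cd226-/- and -8.71 ± 0.063 in WT (SD, n = 3 each), a difference of 0.61. The genotypes did not overlap, and the two-sided exact permutation p was 0.10, the smallest this design allows (0.20 adjusted over the 2 pairs compared).

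**Figure D3:**
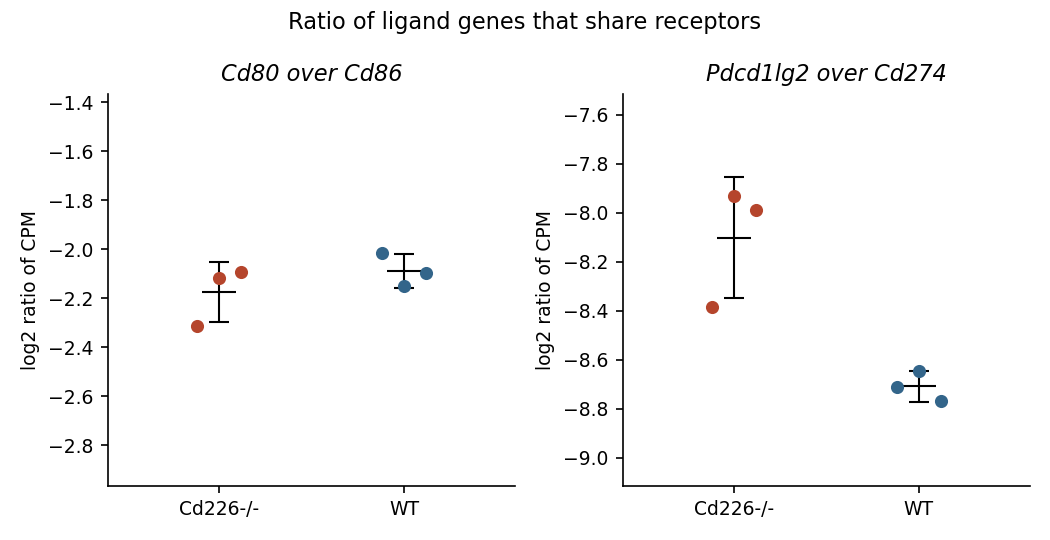
Log2 ratio of CPM within each library for Cd80 over Cd86 and for Pdcd1lg2 over Cd274, in Cd226-/- (left, red) and WT (right, blue) libraries, with mean and SD as black bars and both axes 1.6 log2 units high. The Pdcd1lg2 ratios of the 3 Cd226-/- libraries (-8.38 to -7.93) lie above those of WT (-8.77 to -8.64), while the Cd80 ratios overlap.

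The promoter windows of the PD-1 ligand genes are shown because the genes lie side by side and bind the same receptor, yet only one was called. Each runs 5′ to 3′ along the gene's strand from 250 bases before to 50 bases after the RefSeq start (RefSeq, GRCm38.p6), chr19:29367188-29367487 and chr19:29410669-29410968, both plus strand. RefSeq's whole span of Cd274 begins upstream of that window, at 29362107, so within RefSeq the window belongs to a downstream start. The GENCODE span of Cd274 begins inside the window, at 29367455. Capitals mark GAAA or its reverse complement TTTC, the half-site of the element bound by interferon regulatory factors.
Cd274: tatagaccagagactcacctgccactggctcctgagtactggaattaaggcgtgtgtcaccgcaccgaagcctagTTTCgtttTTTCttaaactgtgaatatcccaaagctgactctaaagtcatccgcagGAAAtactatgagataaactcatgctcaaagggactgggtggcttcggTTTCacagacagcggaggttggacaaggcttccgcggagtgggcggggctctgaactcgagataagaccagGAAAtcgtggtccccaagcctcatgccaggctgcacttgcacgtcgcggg
Pdcd1lg2: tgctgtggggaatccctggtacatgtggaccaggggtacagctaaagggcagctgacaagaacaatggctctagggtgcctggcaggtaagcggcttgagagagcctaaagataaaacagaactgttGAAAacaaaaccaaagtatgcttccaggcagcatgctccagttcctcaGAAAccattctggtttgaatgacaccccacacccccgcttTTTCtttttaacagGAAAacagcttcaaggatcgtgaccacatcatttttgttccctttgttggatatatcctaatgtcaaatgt
The Cd274 window holds 5 such half-sites and the Pdcd1lg2 window 4; 23.5% and 37.4% of all promoter windows in the table hold at least as many. Windows were found for 6 of the 8 genes, including Cd80, Icosl, Cd38 and Slamf7. Those of Cd80 (38458683 to 38458982) and Slamf7 (171648950 to 171649249) lie well inside the GENCODE spans of these genes. Unlike the Cd274 window, these 2 windows belong to starts downstream of the GENCODE ones. None of the 6 holds the full letters searched on both strands: a GAAA pair spaced by any 2 bases for the interferon-stimulated response element (3.44% of all windows) or GGGA and TCC spaced by any 3 bases for an NF-kB type element (4.59%). No match says only that these exact letters are not in these windows. Other forms of the elements were not searched, and a stretch such as ggggaatccc, near the start of the Pdcd1lg2 window, is not covered by these letters.

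Within 200 kb of Cd274, 8 other genes had a row in the table besides Pdcd1lg2, and 6 of these were tested. Jak2, the kinase that carries the IFN-γ receptor signal, averaged 579 ± 49.4 CPM in Cd226-/- and 404 ± 4.21 CPM in WT (SD, n = 3 each) and rose 1.43-fold (adjusted p = 3.40e-07). Insl6, encoding an insulin-like peptide, rose 1.40-fold (17.9 CPM in Cd226-/-, 12.9 CPM in WT; adjusted p = 0.00194). Ric1 rose 1.11-fold (adjusted p = 0.0262) but lost the call with scaling by total count, with no filter and without Cd226-/- replicate 3, WT replicate 1 or WT replicate 3 (adjusted p of up to 0.148). Plgrkt, a plasminogen receptor gene whose span overlaps that of Cd274 in RefSeq, had a log2 fold change of 0.12 (adjusted p = 0.167), and the non-coding Gm36043, inside the span of Cd274, had -0.32 (adjusted p = 0.598). The non-coding A930007I19Rik, antisense to the 3′ end of Pdcd1lg2 in GENCODE, was not called (0.72 on the log2 scale, adjusted p = 0.148) and had 117 counts over the 6 libraries, beside 826 for Pdcd1lg2 itself; without a known strand setting, reads of the antisense partners cannot be told apart.

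Cd40 (chromosome 2, 165055627 to 165072948, plus strand) had 253, 239 and 230 CPM in Cd226-/- and 217, 183 and 214 CPM in WT. WT replicate 2 was lowest, and no library of one genotype crossed into the other. The log2 fold change was 0.23 ± 0.061 (SE; adjusted p = 0.00633), and the rise stayed under the threshold of 0.05 in all 14 alternatives, with values of 0.16 to 0.31.

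Slamf7 (chromosome 1, 171632403 to 171653035, minus strand) had 926, 895 and 872 CPM in Cd226-/- and 813, 783 and 736 CPM in WT. The genotypes did not overlap. Its log2 fold change was 0.21 ± 0.051 (SE; adjusted p = 0.00368), and all 14 alternatives called it. Cd38 (chromosome 5, 43868553 to 43912375, plus strand) had 1078, 1104 and 1100 CPM in Cd226-/- and 991, 990 and 942 CPM in WT. The 3 Cd226-/- libraries were within a coefficient of variation of 1.27%, and WT libraries within 2.85%. Cd38 had the smallest called change, a log2 fold change of 0.17 ± 0.048 (SE; adjusted p = 0.0113), and lost the call without Cd226-/- replicate 2 (adjusted p = 0.0516), without WT replicate 3 (adjusted p = 0.0729), with replicate 1 alone for Cd226-/- (adjusted p = 0.0713) and with scaling by total count alone (adjusted p = 0.0546).

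Icosl (chromosome 10, 78069302 to 78083913, plus strand) had 61, 80 and 77 counts in Cd226-/- and 68, 73 and 56 counts in WT. In CPM these were 3.36, 4.80 and 4.19 in Cd226-/- and 3.73, 4.27 and 2.53 in WT, and the genotypes overlapped. Its log2 fold change was 0.24 with a 95% confidence interval of -0.23 to 0.72 (adjusted p = 0.459). As folds the interval runs from 0.850 to 1.64.

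Among the Cd226-/- libraries the 8 genes did not vary as a block. Replicate 1 was the highest Cd226-/- library for Cd40, Cd86, Cd274 and Slamf7 and the lowest for Cd80, Pdcd1lg2, Icosl and Cd38. Among WT libraries, replicate 2 was lowest for 5 genes (Cd40, Cd80, Cd86, Cd274 and Pdcd1lg2), and replicate 3 was highest for Cd80, Cd86 and Cd274 but lowest for Icosl, Cd38 and Slamf7.

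**Figure D4:**
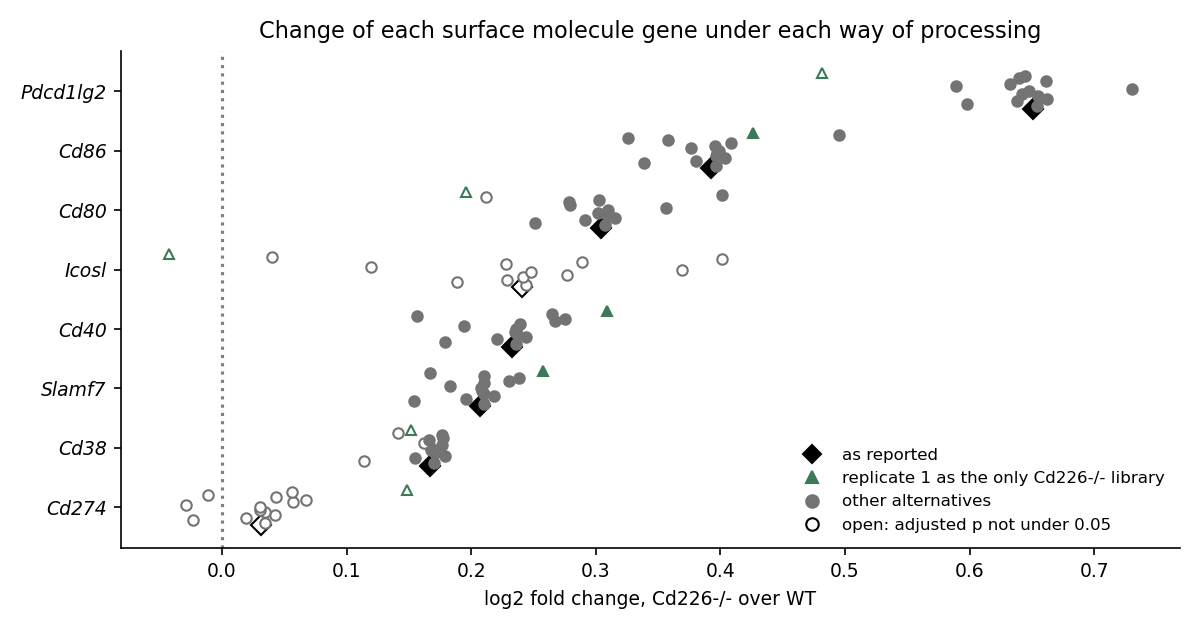
Log2 fold change, Cd226-/- over WT, of each gene as reported (diamonds), with replicate 1 alone for Cd226-/- (green triangles) and under the other alternatives (grey circles); open symbols had an adjusted p not under 0.05. Cd40, Cd86 and Slamf7 are filled throughout, and Pdcd1lg2 ranges from 0.48 to 0.73.

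For each gene the patterns most like it were sought over the 6 libraries, by the Euclidean distance between log2 CPM centred on the gene's mean, among 8972 genes with at least 5 CPM. For Cd40 these were Nod1, the sensor of bacterial peptidoglycan fragments (distance 0.039), and Pla2g4a, a phospholipase A2 gene (0.065). Cd38 was nearest to Adam9 (0.035) and to Lgals9, encoding galectin-9 (0.045), and Slamf7 to Gpat4 (0.042) and March7 (0.053). Pdcd1lg2 was nearest to Cd52 (0.10) and Abi3 (0.11), which rose by 0.60 and 0.67 on the log2 scale. Cd80 was nearest to Mpnd (0.11) and Hat1 (0.13), Cd86 to Dcps (0.11) and Cdc42ep2 (0.11), Cd274 to Rab22a (0.040) and Kctd10 (0.045), and Icosl, the least close of the 8, to Mcm2 (0.26) and Mterf4 (0.31).

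Among the 8 pathway lists the IFN-γ list had the most rises. Of 13 tested 10 rose and none fell (76.9%, against 16.1% of all genes), with a median log2 fold change of 0.27. Most of these genes are abundant: 10 have a mean of at least 100 CPM, and 8 of these rose, where 29.7% of all genes of that level were higher. Irf8, a transcription factor of macrophage and dendritic cell development, averaged 347 ± 20.2 CPM in Cd226-/- and 224 ± 16.9 CPM in WT (SD, n = 3 each; 1.55-fold, adjusted p = 4.24e-08). Besides Jak2, Batf2 rose 1.29-fold (adjusted p = 5.89e-05) and Irf1, a transcription factor induced by IFN-γ, 1.23-fold (adjusted p = 2.05e-04).

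Downstream of CD40, 7 of 16 genes rose and none fell (43.8%, median log2 fold change 0.15), and 4 rose with replicate 1 alone for Cd226-/-. Over all genes tested 16.1% rose and 14.8% fell. In the CD40 list 7 genes have a mean of at least 100 CPM, and 3 of these rose, where 29.7% of all genes of that level were higher. The stated stimulus was IFN-γ with LPS, and Cd40lg had 5 counts or fewer in each library. Whether the rises in this list depend on CD40 was not tested. Tnfaip3, encoding the feedback inhibitor A20, rose 1.38-fold to 315 ± 10.3 CPM in Cd226-/-, against 228 ± 1.10 CPM in WT (SD, n = 3 each; adjusted p = 1.41e-07). The adaptor gene Traf1 rose 1.24-fold (adjusted p = 5.06e-04), and Map3k14, the kinase NIK of the non-canonical NF-kB pathway, 1.35-fold (adjusted p = 7.36e-04; 0.0571 with replicate 1 alone for Cd226-/-).

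In the SLAM family beside Slamf7, 5 of 8 tested genes rose and none fell (62.5% higher, against 16.1% higher and 14.8% lower of all genes). Their median log2 fold change was 0.16. The number that rose was 3 without WT replicate 1 or without WT replicate 3, and 2 fell without Cd226-/- replicate 1. Of the 8 genes, 3 have a mean of at least 100 CPM, and 2 of these rose, where 29.7% of all genes of that level were higher. Slamf8, 1 of the 5, was close to the threshold (1.10-fold, adjusted p = 0.0494). Slamf1 had 66.1, 60.1 and 53.8 CPM in Cd226-/- and 28.7, 24.5 and 24.5 CPM in WT, a rise of 2.32-fold (adjusted p = 7.06e-10). Slamf6 had 60.7, 64.0 and 65.2 CPM in Cd226-/- and 32.4, 37.3 and 31.0 CPM in WT (1.89-fold, adjusted p = 3.08e-09). Both lie on chromosome 1, as Slamf7 does, and both had larger fold changes than Slamf7 at lower levels in CPM. Cd48 (1.04-fold, adjusted p = 0.545) and Cd84 (log2 fold change -0.11, adjusted p = 0.182) lie on chromosome 1 too and were not called. Slamf9 rose 1.51-fold (adjusted p = 0.00109; adjusted p of up to 0.0795 over its alternatives).

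Other ligands of T- and NK-cell receptors moved in both directions: of 11 tested 3 rose and 2 fell (27.3% and 18.2%), with a median log2 fold change of -0.094, and 1 to 4 fell when single libraries were left out (1 without Cd226-/- replicate 3, WT replicate 1 or WT replicate 3, and 4 without Cd226-/- replicate 1). Among all genes tested 16.1% rose and 14.8% fell. Cd200, whose product restrains myeloid cells through its receptor, averaged 164 ± 17.4 CPM in Cd226-/- and 89.3 ± 5.44 CPM in WT (SD, n = 3 each; 1.83-fold, adjusted p = 4.88e-08). Tnfrsf14, the partner of BTLA and LIGHT, rose 1.17-fold (adjusted p = 0.00319), and Vsig4, a complement receptor that inhibits T cells, fell by 0.39 on the log2 scale (adjusted p = 0.00129).

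Of 7 tested TNF-family co-stimulatory ligand genes 2 rose and 2 fell (28.6% each, against 16.1% and 14.8% of all genes). Their median log2 fold change was 0.084. Tnfsf9, the 4-1BB ligand, rose 1.55-fold (adjusted p = 0.00339), and Tnfsf4, the OX40 ligand, had 2.76, 2.40 and 2.56 CPM in Cd226-/- and 3.23, 7.30 and 6.47 CPM in WT (log2 fold change -1.14 ± 0.26 (SE), adjusted p = 0.00222). The Tnfsf4 values did not overlap, with WT replicate 1 near the Cd226-/- libraries. Using replicate 1 alone for Cd226-/- ended the call (adjusted p = 0.0874). The number that fell was 1 without Cd226-/- replicate 1 or WT replicate 1. Tnfsf15 rose 4.22-fold (13.5 CPM in Cd226-/-, 3.24 CPM in WT; adjusted p = 9.67e-09).

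Of 14 genes for the receptors that these ligands bind, 6 did not pass the filter on low counts. Of the 8 tested 2 rose and 2 fell (a share of 1 in 4 each, against 16.1% and 14.8% of all genes). The median log2 fold change of 0.56 lies between rare, uncalled genes. These are Ctla4 (0.57 CPM in Cd226-/-, 0.40 CPM in WT) and Tnfrsf4 (2.13 CPM in Cd226-/-, 1.40 CPM in WT). With a filter at a mean of 5 CPM, 0 receptor genes were called higher. Btla, an inhibitory receptor of lymphocytes and some myeloid cells, averaged 5.92 CPM in Cd226-/- and 3.18 CPM in WT (1.87-fold, adjusted p = 0.00110; adjusted p of up to 0.0765 over its alternatives). Tnfrsf9, the 4-1BB receptor, and Havcr2 (TIM-3) fell by 0.77 (adjusted p = 1.62e-04) and by 0.58 (adjusted p = 6.11e-04) on the log2 scale. The number that rose was 1 without Cd226-/- replicate 1 or WT replicate 2.

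Around CD38, enzymes of NAD and extracellular nucleotides fell or did not pass: of 13 tested none rose and 5 fell (38.5%, against 14.8% of all genes; median log2 fold change -0.11), while 3 fell without Cd226-/- replicate 2, Cd226-/- replicate 3, WT replicate 1 or WT replicate 3, and 2 rose without Cd226-/- replicate 1. Nt5e, the ectonucleotidase CD73, averaged 5.73 ± 0.27 CPM in Cd226-/- and 12.5 ± 0.99 CPM in WT (SD, n = 3 each; log2 fold change -1.13, adjusted p = 9.30e-07). Nmnat3, of NAD synthesis, fell by 0.83 (adjusted p = 2.29e-05) and Parp14, an ADP-ribosyltransferase gene, by 0.28 on the log2 scale (adjusted p = 1.32e-04). Bst1, the relative of CD38 with NAD-consuming activity, had 1359 CPM in Cd226-/- and 1546 CPM in WT (log2 fold change -0.19, adjusted p = 0.0104, and up to 0.396 over its alternatives).

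Of 6 genes known to act on PD-L1 protein turnover, 1 rose and 2 fell (16.7% and 33.3%, against 16.1% and 14.8% of all genes). Their median log2 fold change was 0.062. Cmtm6, which keeps PD-L1 on the cell surface in human cells, averaged 161 ± 3.94 CPM in Cd226-/- and 184 ± 7.66 CPM in WT (SD, n = 3 each; log2 fold change -0.20, adjusted p = 0.00430). Its relative Cmtm4 fell by 0.22 on the log2 scale (adjusted p = 0.0385), a call lost without any one library except WT replicate 2, with an adjusted p of up to 0.199 over its alternatives. Hip1r rose 1.66-fold (adjusted p = 0.0128; adjusted p of up to 0.112 over its alternatives). The number that rose was 0 without WT replicate 2 and 2 without WT replicate 3, and the number that fell was 1 without any one library except WT replicate 2.

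**Figure D5:**
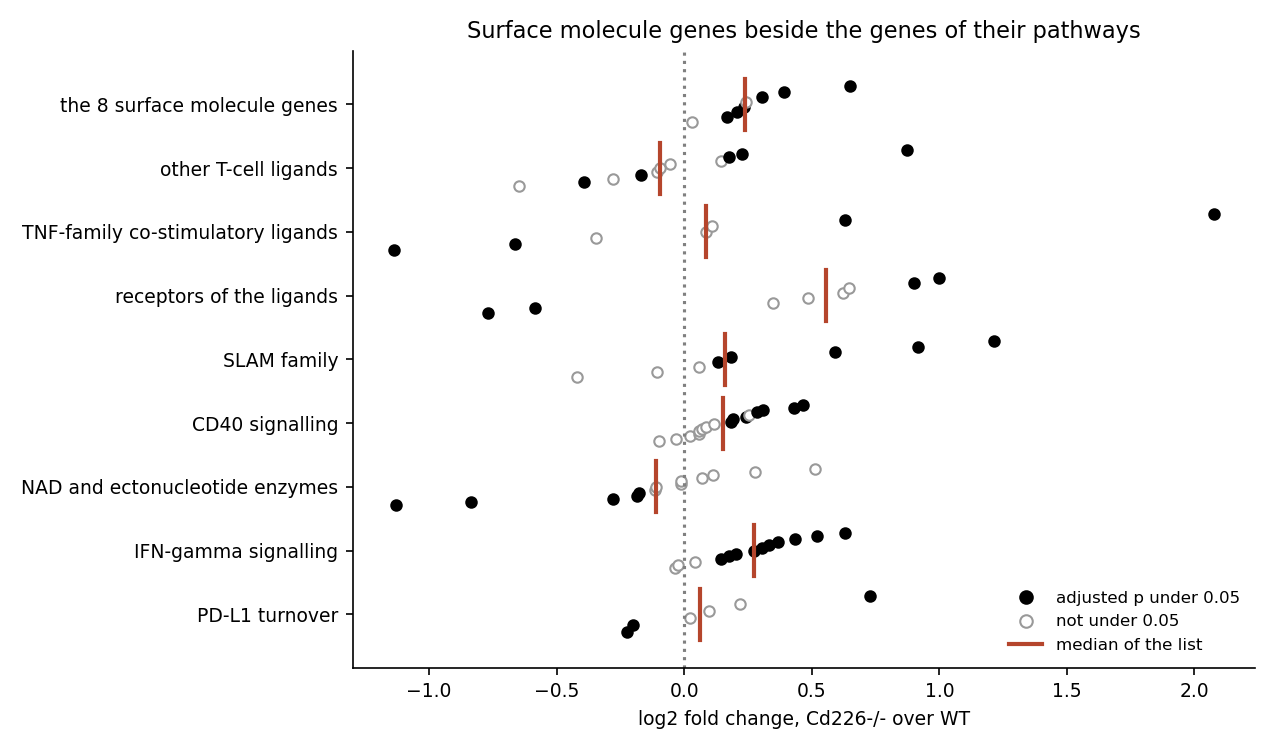
Log2 fold change, Cd226-/- over WT, of the tested genes of each list, with the list's median as a red line; filled points had an adjusted p under 0.05. All filled points of the IFN-γ, CD40 and SLAM lists lie above 0 and those of the NAD list below it.

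B cells and dendritic cells also express Cd40, Cd80, Cd86, Icosl and several SLAM genes. Some markers of each were called higher in Cd226-/- libraries, where 16.1% of all genes tested were higher and 14.8% lower. Of 7 tested B cell markers 6 were called higher and none lower, and the summed level of the 8 markers in the table was 42.3 to 54.3 CPM in Cd226-/- libraries and 18.6 to 20.6 CPM in WT libraries, with Ighm listed at 0 in all 6. Of 6 tested dendritic cell markers 3 were called higher and none lower (1 with replicate 1 alone for Cd226-/-), with summed levels of 102 to 109 CPM in Cd226-/- and 69.1 to 83.6 CPM in WT over 9 markers. Most of that sum was Ccr7, with a mean of 63.6 CPM in Cd226-/- and 43.4 CPM in WT, and Itgax, with 32.6 CPM in Cd226-/- and 25.1 CPM in WT; the third marker called higher was Dpp4, with 2.33 CPM in Cd226-/- and 1.09 CPM in WT. Zbtb46 averaged 4.38 CPM in Cd226-/- and 4.28 CPM in WT, and Flt3 1.91 CPM in Cd226-/- and 1.17 CPM in WT. Clec9a averaged 0.651 CPM in Cd226-/- and 0.821 CPM in WT, and Cd209a 0.150 CPM in Cd226-/- and 0.208 CPM in WT. Xcr1 (0.115 CPM) and Siglech (0.020 CPM) were near 0 in Cd226-/- and at 0 counts in WT. Stromal markers summed to 769 to 801 CPM in Cd226-/- and 497 to 578 CPM in WT, with 5 of 6 called higher, and of 7 macrophage markers 4 were called higher and 2 lower. T and NK cell markers summed to 7.77 to 9.59 CPM in Cd226-/- and 7.89 to 9.05 CPM in WT, with none of 6 tested called. The 8 neutrophil markers summed to 57.8 to 64.6 CPM in Cd226-/- and 49.4 to 62.6 CPM in WT, nearly all of it S100a8, and neither of the 2 tested was called. S100a8 averaged 58.9 CPM in Cd226-/- and 55.2 CPM in WT, Camp averaged 1.02 CPM in Cd226-/- and 0.50 CPM in WT, and the other 6, Mpo and Elane among them, were near 0 in both genotypes. The part of other cell types in the changes of the 8 genes was not tested.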

How the data were processed

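The authors deposited 1 table of raw read counts per gene, by symbol, with 1 column for each of 6 libraries; per the submitters' processing notes, HISAT2 and the GRCm38 build were used. The counter, the annotation, the strand handling and tool versions: not given in the sources used here. Columns were matched to libraries by title, 0 columns stayed unused, and no row lacked a gene name.

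Counts were filtered with filterByExpr, scaled by TMM and tested in R 4.3.3 with edgeR 4.0.16 (robust quasi-likelihood F-test, two-sided, genotype as the only term), with Benjamini-Hochberg adjustment over 13215 genes; a call is an adjusted p under 0.05. The standard error is the log2 fold change over the square root of F. CPM uses TMM-scaled library sizes, and 1 count was worth 0.0452 to 0.0600 CPM. Log2 CPM has a prior count of 2. Exon lengths and positions of the 8 genes are from GENCODE M21, and those of neighbours and promoters from RefSeq, both GRCm38. The steps were run on simulated data, and their recovery of changes as small as those of the 8 genes is not reported here. No pair of libraries of 1 genotype was as alike as 1 library deposited again would be (chi-square over degrees of freedom of 2.17 to 7.76), which does not show that they are separate cultures.

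The 8 genes, 8 gene lists and 6 marker lists were chosen with earlier results of these data known. Named are the 8 genes, up to 3 called genes per list by p, the 2 genes most like each of the 8, and genes within 200 kb of Cd274. Irf1, Bst1, Lyz2 and the marker genes, and the half-site count, were chosen after values were seen. All 149 list symbols matched a row, 1 of them (Cd244) through an older symbol. Alternatives were other scalings (DESeq2 1.42.0 size factors, total count), other filters, the DESeq2 Wald test, limma-voom (limma 3.58.1), a block for replicate number, leaving out single libraries in turn, and a fit with replicate 1 alone for Cd226-/-, which takes its spread from WT on the assumption that the single library varies as they do. Library ratios were compared with an exact permutation test (scipy 1.17.1).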

Additional observations from a re-analysis of the deposited data

How the results depend on the processing

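The 6 rises were called by every test and filter tried (DESeq2 size factors, the DESeq2 Wald test, limma-voom, no filter and a mean of at least 5 CPM, where Icosl gave no value). Scaling by total count alone left 5, Cd38 falling short at 0.11. With replicate 1 alone for Cd226-/- 3 were called: Cd80 had 0.20, Pdcd1lg2 0.48 and Cd38 0.15 (log2), none under the threshold. With 1 library left out, the number called higher was 5 to 6, Cd38 ranged from 0.14 to 0.18, Cd80 from 0.21 to 0.40, and the genes of the 8 pathway lists called lower numbered 8 to 16, against 13 with all libraries. By list, under all alternatives, 0 to 2 SLAM genes, 0 to 1 CD40 genes, 1 to 4 other ligands, 0 to 2 TNF-family ligands, 3 to 6 NAD genes and 1 to 2 PD-L1 turnover genes were called lower, and 4 to 9 CD40 genes, 3 to 5 SLAM genes, 0 to 2 receptors, 0 to 2 NAD genes and 0 to 2 PD-L1 turnover genes higher; the reported counts stand with each list above. The cause of these shifts was not tested. Calls lower over all genes were 1322 to 2764.

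The replicate number as a block left the 6 calls as they were (Pdcd1lg2 0.65, Cd38 0.17 log2) and gave 2185 genes higher and 1952 lower. Same-numbered libraries did not deviate together (correlations 0.0105, -0.013 and 0.015). The labels do not say whether the numbers pair the samples, and these correlations cannot decide it. Icosl and Pdcd1lg2 had under 200 counts per library and the widest intervals of the 8 genes.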
